A study of Caenorhabditis elegans with 2 samples.

Results

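Divergent coding promoters are stretches of DNA from which a pair of protein-coding genes is read outward, a minus-strand gene to the left and a plus-strand gene to the right. The 359 regions described here are the SNPC-4 binding peaks that lie in such stretches in *Caenorhabditis elegans* L2 larvae, out of 1839 nuclear peaks in the authors' thresholded list on the ce11 build. They were chosen by gene position alone. A peak was a member when an annotated plus-strand coding 5′ end lay within 1000 bp to the right of its summit and a minus-strand one within 1000 bp to the left. A peak with an snRNA, snoRNA, tRNA, miRNA, piRNA or *sls* gene within 250 bp of the summit was left out, which removed 18 peaks with starts on both sides. For comparison, 671 nuclear peaks, called single-sided below, had an outward coding start within 1000 bp on the left or the right but not on both sides. Another 585 had none, and 224 were left out for a listed noncoding gene.

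The worms were of strain OP179, which carries the *unc-119(ed3)* III allele and the wgIs179 transgene for eGFP-tagged SNPC-4, and they were whole animals of mixed sex. There was 1 group of 2 biological replicates, so both replicates and all values come from transgenic animals of the same genotype and stage. Binding was read by chromatin immunoprecipitation and sequencing against the tagged protein. A control alignment entered the authors' peak calling and was not analysed here. Read depth was unknown from the peak lists, and 95% exact binomial intervals below cover counting of genes and peaks only. With 1 group, no comparison between conditions was possible and no test was made.

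SNPC-4 is the worm member of the SNAPc family, a complex that binds upstream of small nuclear RNA genes and recruits RNA polymerase II or III there. In worms it is also known for binding at piRNA gene clusters. A divergent promoter serves a pair of genes from the stretch between their starts. Many worm mRNAs are trans-spliced, and an annotated 5′ end can be the trans-splice site, so that transcription may begin upstream of the annotated start. Distances below are to annotated 5′ ends.

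The sequences around some of the strongest members are shown first, because the peaks are defined by position and not by their letters. Each line gives 50 bp on either side of the summit, on the plus strand of ce11 from the RefSeq genome, with the minus-strand gene named before the plus-strand gene. Capitals mark AGACGCAG and the 8-base sequences GCGAGACC, ACTCCTCT, GCGCTCCA and CTGGCGCA, on either strand, which are counted further below. The first set holds the 6 strongest members.
E04F6.6/pcrg-1, chrII:7200146-7200246: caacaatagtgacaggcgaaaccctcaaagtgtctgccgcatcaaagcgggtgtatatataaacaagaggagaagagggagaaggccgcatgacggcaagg
rpl-15/K11H12.8, chrIV:654868-654968: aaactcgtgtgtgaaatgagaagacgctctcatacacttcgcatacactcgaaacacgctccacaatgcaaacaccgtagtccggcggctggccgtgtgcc
rpl-20/Y17G9B.5, chrIV:4750021-4750121: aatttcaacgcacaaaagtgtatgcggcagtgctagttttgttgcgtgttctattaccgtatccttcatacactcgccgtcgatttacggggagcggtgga
T26A8.4/pdtf-1, chrIV:8432909-8433009: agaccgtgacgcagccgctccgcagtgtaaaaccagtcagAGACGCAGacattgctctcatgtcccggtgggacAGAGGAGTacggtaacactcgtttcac
cng-1/F14H8.8, chrV:15029096-15029196: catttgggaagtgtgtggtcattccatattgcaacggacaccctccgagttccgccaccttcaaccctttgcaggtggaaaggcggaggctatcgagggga
ify-1/rpl-22, chrII:5055321-5055421: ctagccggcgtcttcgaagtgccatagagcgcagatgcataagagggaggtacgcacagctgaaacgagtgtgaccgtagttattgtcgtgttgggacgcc

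Of these 6, the T26A8.4/pdtf-1 window holds AGACGCAG and, on the other strand, ACTCCTCT, and the other 5 windows hold no marked sequence. The next set holds the 3 strongest further members with AGACGCAG.
efl-1/fbxa-90, chrV:16965805-16965905: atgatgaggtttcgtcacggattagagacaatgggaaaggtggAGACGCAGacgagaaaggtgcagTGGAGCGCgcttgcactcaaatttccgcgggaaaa
fipr-17/Y48A6B.3, chrIII:11007847-11007947: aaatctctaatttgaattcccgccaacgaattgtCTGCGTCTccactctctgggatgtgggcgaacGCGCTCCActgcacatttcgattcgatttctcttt
drr-2/set-16, chrIII:13643692-13643792: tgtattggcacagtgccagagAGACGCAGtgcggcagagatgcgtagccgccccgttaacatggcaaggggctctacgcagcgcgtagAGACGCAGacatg

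The last set holds 4 further members with GCGAGACC, taken in order of signal on the chromosomes whose sequence is shown, an 8-base sequence found by comparing members with weaker divergent candidates.
hsp-110/rpn-3, chrIII:8447100-8447200: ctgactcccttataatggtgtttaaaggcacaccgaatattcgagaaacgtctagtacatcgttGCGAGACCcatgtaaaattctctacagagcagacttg
fib-1/mut-15, chrV:15002274-15002374: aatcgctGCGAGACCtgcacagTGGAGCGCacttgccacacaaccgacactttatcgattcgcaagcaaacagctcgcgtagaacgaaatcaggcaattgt
wapl-1/htz-1, chrIV:4445848-4445948: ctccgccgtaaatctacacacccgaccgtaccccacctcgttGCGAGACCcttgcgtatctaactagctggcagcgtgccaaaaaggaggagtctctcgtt
T27E9.2/ant-1.1, chrIII:13463077-13463177: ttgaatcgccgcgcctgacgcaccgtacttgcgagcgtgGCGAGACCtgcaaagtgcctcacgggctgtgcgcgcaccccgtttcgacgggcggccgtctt

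Divergent coding promoters held many of the authors' candidate peaks above the reproducibility threshold. The authors' pooled list held 29975 nuclear candidates, of which 1124 met the same rule of gene position. Of these, 359 were in the thresholded list (31.9%), beside 6.14% of all nuclear candidates. The share was 8.78% for single-sided candidates (671 of 7643) and 3.09% for candidates with no outward coding start nearby (585 of 18902). Members made up 19.5% of nuclear peaks. The thresholded list is the strong end of the pooled candidates, so these shares describe how often a candidate at a divergent promoter was strong. The difference between classes was not tested.

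The 359 peaks fell on 356 gene pairs and 712 different genes, and no gene was in more than 1 pair. The share of all 19973 nuclear protein-coding genes that belonged to a member was 3.56%. A pair had a second peak in 3 cases. At *T26A8.4* and *pdtf-1* the summits had signals of 220.5 and 96.2, between *ecps-1* and *atx-2* 44.0 and 35.3, and between *tag-77* and *mes-6* 35.0 and 32.3. In the first pair the weaker summit, in an intron, lay 844 and 701 bp from its nearest outward ends. The stronger lay 66 and 79 bp from its own. The nearest annotated 5′ end of *T26A8.4* differed between these summits, and that of *pdtf-1* was the same. Summits lay outside any coding gene body at 329 of 359 members (91.6%), in an intron of a coding gene at 15 and in an exon at 15. Among single-sided peaks 548 of 671 (81.7%) lay outside coding gene bodies.

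The starts of a member pair lay close together. The median spacing between the paired 5′ ends was 520 bp (quartiles 327.5 and 758.5, range 61 to 1659), within a rule that allows up to 2000 bp. The shortest spacing was at *F01F1.11* and *F01F1.3*, with starts 28 and 33 bp from the summit and a signal of 36.2. The longest was at *mif-4* and *ipla-6* (distances 902 and 757 bp, signal 48.1). At the 1000 bp limit, the member nearest to it was at *R12C12.6* and *ran-5*, with its farther start 989 bp from the summit and a signal of 45.4, and the first peak outside it was at *nasp-2* and *C50B6.3*, at 1001 bp with a signal of 67.7.

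All neighbouring divergent coding gene pairs of the nuclear genome were counted as the frame for these spacings, taking the outermost 5′ end of each gene. There were 2556 such pairs up to 2000 bp apart, with a median spacing of 681 bp (quartiles 366 and 1156). A member summit lay between the starts of 331 of them, 12.9%. The share differed by spacing. It was 9.41% for 372 pairs under 250 bp apart (95% interval 6.64 to 12.8) and highest at 250 to 500 bp, with 126 of 540 pairs (23.3%, 19.8 to 27.1). It was 19.2% at 500 to 750 bp (15.7 to 23.0) and 14.1% at 750 to 1000 bp (10.6 to 18.1). Beyond 1000 bp it was 5.11% and then 1.23%, where the rule itself leaves a shrinking part of the gap in reach of both starts. Per kilobase of gap in reach, member summits numbered 0.577 under 250 bp, 0.635 at 250 to 500 bp, 0.314 at 500 to 750 bp, 0.166 at 750 to 1000 bp and 0.0667 at 1000 to 1500 bp. Thus short gaps held about as many summits per base under 250 bp as at 250 to 500 bp, and the lower share of the shortest pairs went with their smaller length. Over all nuclear DNA the list had 0.0183 summits per kilobase.

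**Figure D1:**
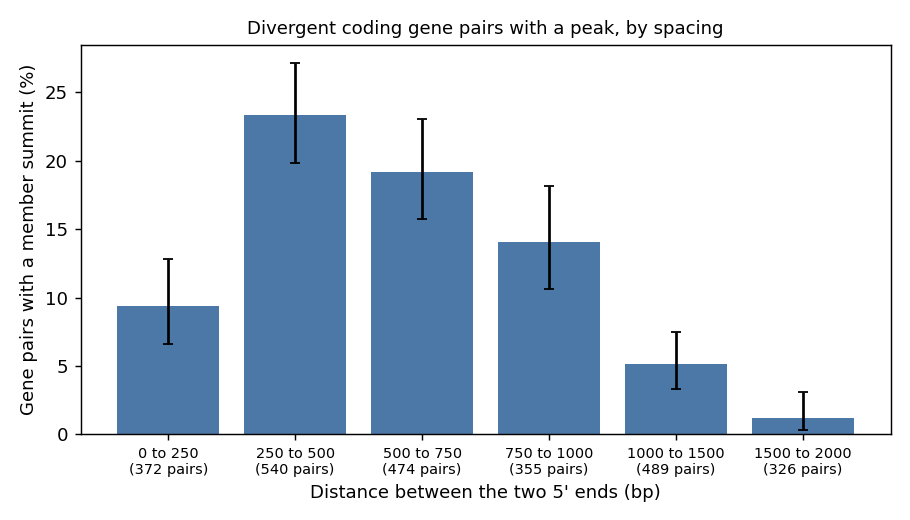
Share of neighbouring divergent coding gene pairs with a member summit between their 5′ ends (y axis, percent) by the distance between the ends (x axis, bp). Bars are shares and vertical lines 95% exact binomial intervals. The share is 23.3% at 250 to 500 bp and 9.41% under 250 bp.

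Summits lay on the left side of the gap about as often as on the right. With the minus-strand start at 0% and the plus-strand start at 100%, the median position was 50.2% (quartiles 31.9 and 68.7). The summit was nearer the minus-strand start at 178 members and nearer the plus-strand start at 180. It lay between 25% and 75% of the gap at 239 members (66.6%, 95% interval 61.4 to 71.4) and at 62.0% of the 765 divergent candidates below the threshold (58.4 to 65.4). The distance to the nearer start had a median of 150 bp (quartiles 80.5 and 226.5) at members and 174 bp (95 and 305) at the weaker divergent candidates. A start lay within 50 bp at 40 members (11.1%) and at 10.7% of the weaker candidates. Both starts lay within 500 bp of the summit at 255 members (71.0%) and at 48.5% of the weaker candidates. The distance from the gap's centre is bounded by the gap itself. Its median was 39.3 bp for spacings under 250 bp, 54 bp at 250 to 500 bp, 113.5 bp at 500 to 750 bp and 200 bp at 750 to 1000 bp. As a share of the gap, summits lay between 25% and 75% at 70.0%, 69.5%, 70.8% and 56.1% of members, in the same order.

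**Figure D2:**
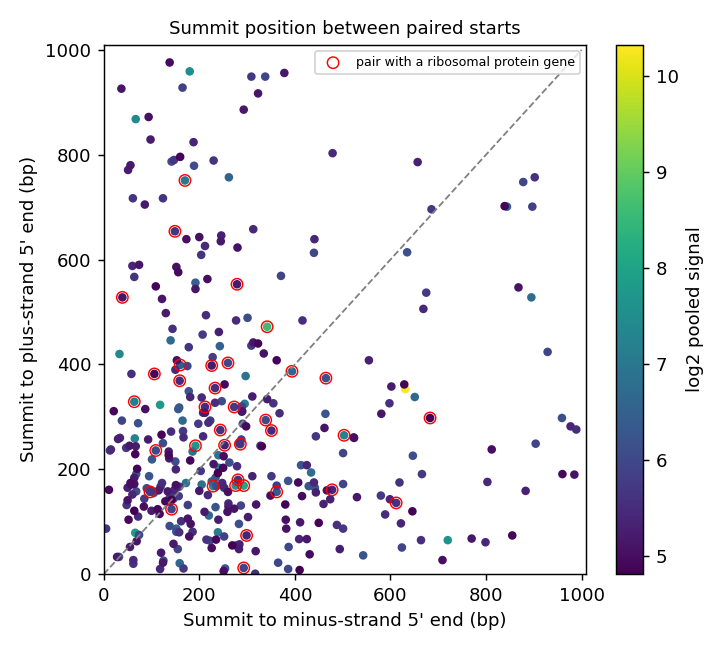
Each point is a member peak, with the distance from its summit to the minus-strand 5′ end (x axis, bp) and to the plus-strand 5′ end (y axis, bp), coloured by log2 pooled signal. Points lie on both sides of the dashed line of equal distance (178 nearer the minus-strand start, 180 nearer the plus-strand start), and red rings mark the 36 peaks of pairs with a listed ribosomal protein gene.

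The deposited signal is the authors' peak strength on a scale of its own, without a stated depth scaling. Member signals in the pooled data ranged from 28.0 to 1285, with a median of 45.2 (quartiles 35.8 and 62.9). The median was 43.5 (34.5 and 61.8) over all nuclear peaks and 42.7 (34.5 and 59.5) over single-sided peaks, so the quartiles of the 3 sets overlapped almost fully. Members were 8 of the 100 strongest nuclear peaks, 105 of the 500 strongest and 194 of the 919 strongest (21.1%). Signal showed almost no relation to spacing across the 359 members (Spearman rho = 0.00484) and a weak one to the GC content within 100 bp of the summit (rho = 0.217). These are correlations across peaks of shared libraries. The members' median GC content was 40.3%, beside 43.3% for single-sided peaks, 44.8% for all nuclear peaks and 34.8% for divergent candidates below the threshold.

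The strongest member by far lay between *E04F6.6* and *pcrg-1*, the worm homologue of the parkin co-regulated gene. Its signal was 1285 in the pooled data, 324 in replicate 1 and 964 in replicate 2, ranking 20 of 1839. The RNase MRP RNA gene *mrpr-1*, an RNA polymerase III gene annotated as unclassified ncRNA, lay 37 bp from this summit, so the peak cannot be given to the coding pair by distance. The same limit holds for pairs named below. A noncoding gene overlapped the summit at *rpl-39* with *rps-30*, *rpl-36.A* with *nuo-1*, *rpb-3* with *pas-4*, *rpt-2* with *aps-1* and *C37C3.18* with *C37C3.9*. One lay 25 bp away at *Y37E3.8* with *phb-1* and 55 bp away at *hsp-110* with *rpn-3*. Such unclassified or antisense noncoding genes lay within 250 bp of 52 members (14.5%). The same held for 81 of 671 single-sided peaks (12.1%) and 460 of 1839 nuclear peaks (25.01%). The nuclear peaks include those left out for a listed noncoding gene, and the difference was not tested. The other 307 members had a median signal of 44.3 and a highest signal of 389.

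That second peak lay between *rpl-15*, a protein of the large ribosomal subunit, and *K11H12.8*, annotated by RefSeq as a growth hormone-inducible transmembrane protein. Its signal was 389 in the pooled data, 109 in replicate 1 and 287 in replicate 2. The third lay between *rpl-20*, another large-subunit protein gene, and *Y17G9B.5*, annotated as a mitochondrial signalling intermediate of the Toll pathway. Its signals were 265, 60.2 and 207, in the same order. The drop from the first to the third is seen in the pooled data and in each replicate list.

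Next came *T26A8.4*, a C3H1-type zinc finger gene, with *pdtf-1*, at 220.5 in the pooled data, 54.9 in replicate 1 and 167 in replicate 2. The cyclic nucleotide channel gene *cng-1* with *F14H8.8* followed at 218, 30.7 and 187. The securin gene *ify-1*, which restrains chromosome separation, with *rpl-22* had 214, 70.9 and 146. The order of these last peaks differs between the replicates, with *ify-1* and *rpl-22* the higher of the 3 in replicate 1 and the lowest in replicate 2.

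The small-subunit gene *rps-19* with *hsr-9* had signals of 205 pooled, 53.9 in replicate 1 and 147 in replicate 2. *K01G5.10* with *tasp-1*, a threonine aspartase homologue, had 202, 40.2 and 158. The E2F transcription factor gene *efl-1* with the F-box gene *fbxa-90* had 180.5, 32.4 and 145. All 3 ranked among the 150 strongest peaks in each replicate's own list, at 87, 113 and 140 in replicate 1 and 94, 90 and 96 in replicate 2.

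The list of the 12 strongest was closed by *rps-20* with *ekl-4*, a homologue of the DNMT1-associated protein, at 170 pooled, 31.9 in replicate 1 and 149.9 in replicate 2. *iff-2*, which encodes translation initiation factor 5A, with *F54C9.14* had 169.5, 42.7 and 124. The nucleoside diphosphate kinase gene *ndk-1* with *F25H2.6* had 166, 40.9 and 123. At *iff-2* and *ndk-1* the summit lay 67 and 33 bp from that gene's start and 868 and 420 bp from the partner's. At the low end, the 3 weakest members were *mdf-2* with *nduv-3* at 28.07, *R07E4.5* with *R07E4.3* at 28.06, and *W02H5.16* with *W02H5.19* at 28.03. Just under the threshold stood the divergent candidates at *ZK512.2* with *ZK512.4* (27.97) and *arx-2* with *K07C5.2* (27.95).

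Genes of the protein synthesis machinery were frequent among the members. Gene lists were drawn up by gene name, so a gene whose name is outside a list’s pattern is not counted in the shares and orders below, whatever its annotated product. Of 83 cytosolic ribosomal protein genes so named, 50 belonged to a neighbouring divergent pair, and 38 of these 50 (76.0%) were in a member, beside 13.6% of all 5112 genes of such pairs. The 38 genes carried 36 peaks with a median signal of 56.8 (quartiles 44.2 and 87.0), against 43.9 (35.2 and 61.6) for the 323 members without a gene of the list, so the quartile ranges overlap. Those 323 include *Y37E3.8* with *phb-1* (52.6) and *C37A2.7* with *pqn-20* (34.8), whose first gene is annotated by RefSeq as a large-subunit ribosomal protein. Listed genes were in 8 of the 20 strongest members. Ribosomal protein genes were already known from an earlier analysis of these data to be frequent at SNPC-4 peaks, so this count is no independent evidence. At 2 members both genes encode ribosomal proteins. *rps-14* with *rpl-36* had signals of 63.0 pooled, 18.9 in replicate 1 and 44.3 in replicate 2. *rpl-39* with *rps-30* had 40.6, 17.6 and 21.1. At *rpl-28* with *mrpl-49*, a pair of a cytosolic and a mitochondrial ribosomal protein gene, the signals were 79.9, 14.9 and 64.2. At *rpl-36.A* with *nuo-1*, a complex I subunit gene, they were 66.4, 13.3 and 54.5.

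In pairs of a ribosomal protein gene with another gene, the summit was more often nearer the partner's annotated start. This held at 23 of 34 such members, and the ribosomal protein start was the nearer at 11. The median distance was 298.5 bp to the ribosomal protein start (quartiles 244.3 and 372.8) and 186 bp to the partner's (157.5 and 320.3). The 21 single-sided peaks at a ribosomal protein start had a similar distance, with a median of 294 bp (246 and 355). Among the members *rps-27* lay 612 bp from a summit that was 136 bp from *picd-1*, while *rpl-12* lay 64 bp from a summit that was 329 bp from *lin-54*.

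The 12 paired ribosomal protein genes outside the members did not all lack peaks. Peaks left out for a listed noncoding gene lay between *rps-10* and *rpl-24.1* (signal 78.4), between *ska-3* and *rps-12* (188), between *tmem-107* and *rps-26* (62.7) and between *ppm-1.H* and *rpl-34* (39.6). At *rps-5*, whose partner start lay 1896 bp away, the peak between the starts was single-sided (43.5). No thresholded peak lay in the gaps of *rpl-10*, *rps-13*, *rla-2*, *rps-18*, *rpl-11.1* or *rpl-2*. The strongest candidate there was 14.8 at *rpl-2* and 12.8 at *rla-2*, and the other 4 gaps held no candidate.

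Most other housekeeping lists also had more than 13.6% of their paired genes in members, without a test. The shares of the smaller lists rest on few paired genes and have wide exact intervals, so those lists may not differ from the background. Translation factors had 9 of 21 paired genes in members (42.9%). Within the list the strongest peak was at *iff-2*, given above, followed by *ctf-4* with *eef-1G*, an elongation factor subunit, at 97.7 and *eif-3.E*, an initiation factor subunit, with *B0511.17* at 88.1. Outside it, *C37C3.18*, annotated as initiation factor 5, shared a peak of 98.5 with *C37C3.9*. The elongation factor 2 gene *eef-2* lay 11 bp from a summit shared with *clsp-1* (74.1). Mitochondrial ribosomal protein genes had 7 of 27 (25.9%), led by *mrps-7* with *Y57G11C.3* at 81.4 and the *rpl-28* and *mrpl-49* pair. Aminoacyl-tRNA synthetases had 2 of 15 (13.3%), near the background.

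Splicing genes had 15 of 30 paired genes in members on 12 peaks. Both genes were splicing genes at 3 of these, namely *rsp-2* with *rsp-1*, a pair of SR protein genes (24.0 in replicate 1 and 66.7 in replicate 2), the Sm protein gene *snr-3* with *rsp-5* at 65.0 pooled, and *snu-13* with *rsp-7* at 31.0 pooled. The spacing of *rsp-2* and *rsp-1* was 1019 bp. RNA polymerase subunit genes had 3 of 7 (42.9%), led by *rpb-3*, which shares a peak of 47.2 with the proteasome gene *pas-4*.

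Protein folding and turnover genes followed. Chaperone genes had 14 of 32 paired genes in members (43.8%), and a further chaperone gene was in a member without being in a neighbouring pair by outermost ends. The strongest peaks of the list were at *hsp-110* with *rpn-3*, a chaperone next to a subunit of the proteasome's regulatory particle, at 126, at *hsp-90* with *C47E8.4* at 124, and at the chaperonin gene *cct-1* with *mig-5* at 118. Proteasome genes had 8 of 22 (36.4%), with *rpn-9* at 92.3 and *rpt-2* at 59.2 after *rpn-3*. Oxidative phosphorylation genes had 13 of 42 (31.0%), and the strongest of the list were the complex I gene *ndub-8* with *cup-14* at 106, *cox-6B* at 68.1 and *ndua-8* at 66.9. Outside it, *T27E9.2* and *F29B9.11*, annotated as subunits of the cytochrome b-c1 complex and of cytochrome c oxidase, were at peaks of 76.6 and 68.7. Small GTPase genes of the RAB and ARF families had 5 of 12 (41.7%), led by *rab-18* at 60.3. The list of cell cycle genes, made of cyclins, their kinases and genes named *mcm*, *orc*, *cdc* or *cdt*, had 6 of 23 (26.1%). Its strongest peak was at the replication licensing gene *cdc-6* at 71.3, below the unlisted *ify-1* (214) and the DNA polymerase gene *pola-1* (78.2), and at *orc-5* with *cyb-1* (36.6) both genes were of that list. Vacuolar ATPase genes had 2 of 7, *vha-8* at 105.8 and *vha-1* at 45.5.

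Several families had shares below the background of 13.6%, without a test. Those of collagens, nuclear hormone receptors and cytochrome P450 genes rest on 2 member genes or fewer, too few to set them apart from the background. Chemoreceptor genes, large families read in sensory neurons, had 4 of 282 paired genes in members (1.42%). C-type lectins had 1 of 79 (1.27%), collagens 2 of 38 (5.26%), nuclear hormone receptors 2 of 44 (4.55%) and cytochrome P450 genes 0 of 16, for which a floor of 3 counts allows up to 18.8%. Histone genes, often arranged as divergent pairs, had 3 of 65 (4.62%), namely the histone variant gene *htz-1* with *wapl-1* at 79.2 and the pair *his-67* and *his-68* at 44.3. Near the background, nuclear pore and import genes had 4 of 25 (16.0%), ubiquitin-conjugating enzymes 1 of 8 and *ceh* homeobox genes 1 of 10, *ceh-38* with *malt-1* at 137. Gene products named as uncharacterized by RefSeq made up 27 of the 712 member genes (3.79%), beside 9.35% of all coding genes.

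**Figure D3:**
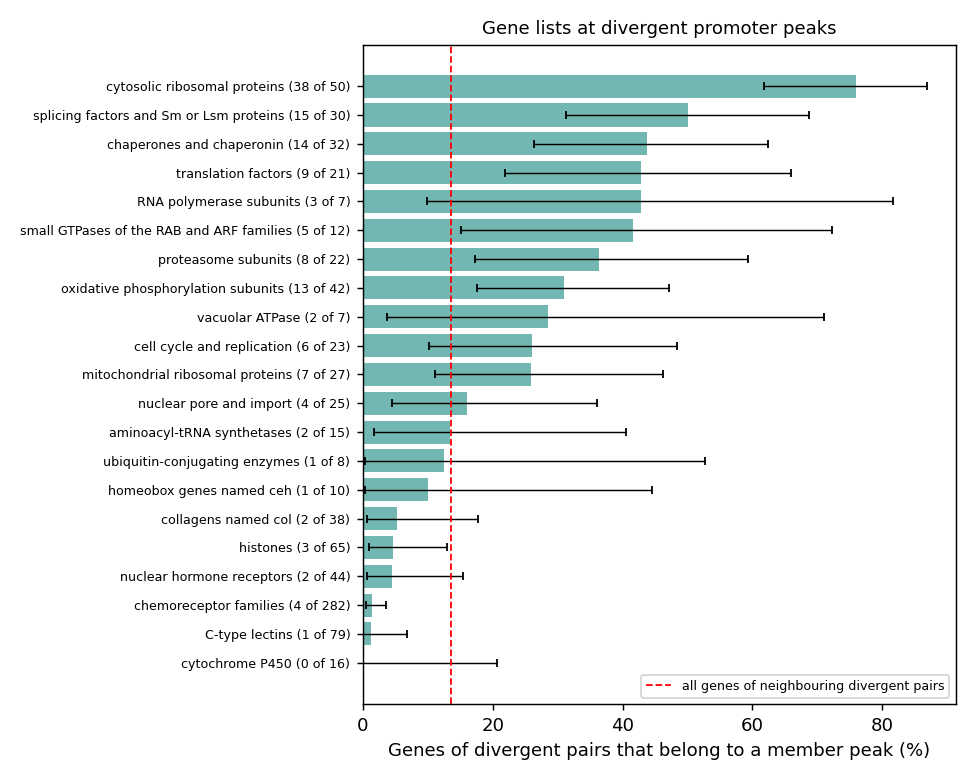
Share of each list's genes in neighbouring divergent pairs that belong to a member (x axis, percent), with 95% exact intervals and the counts beside each name. The dashed line is the share over all genes of such pairs, 13.6%, and the ribosomal protein genes stand at 76.0%. Genes that share a peak are counted singly.

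A list made after the members had been seen was that of the DREAM complex, a repressor of cell cycle and germline genes built on E2F and retinoblastoma proteins. Of 8 genes looked up, 5 were in a neighbouring divergent pair and 4 of these were in members. They were *efl-1* (180.5), *lin-54* with *rpl-12* (139.6), *lin-53* with *nra-2* (115.5) and *lin-35* with *vps-51* (78.7). The fifth, *lin-9*, had no member peak. As the list was prompted by these members, its count supports nothing beyond itself.

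The X chromosome had few members. Of its 349 nuclear peaks 10 were members (2.87%, 95% interval 1.38 to 5.21), while the share on the autosomes ran from 20.2% on II (15.9 to 25.1) to 26.9% on III (21.9 to 32.3). The X also had the fewest neighbouring divergent pairs, 178 beside 385 to 656 on each autosome, but per 100 such pairs it had 5.62 members, beside 10.2 on V and 20.5 on III. Of its 59 divergent candidates 16.9% passed the threshold, beside 25.3% on V and 37.6% on I. Over all candidates the X passed at 6.10%, within the autosomal range of 5.01% to 7.30%. The strongest X member lay between *trap-2*, a translocon-associated protein, and *ile-2* (79.6), and the median X member signal of 41.6 was near the autosomal medians of 42.7 to 48.9.

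**Figure D4:**
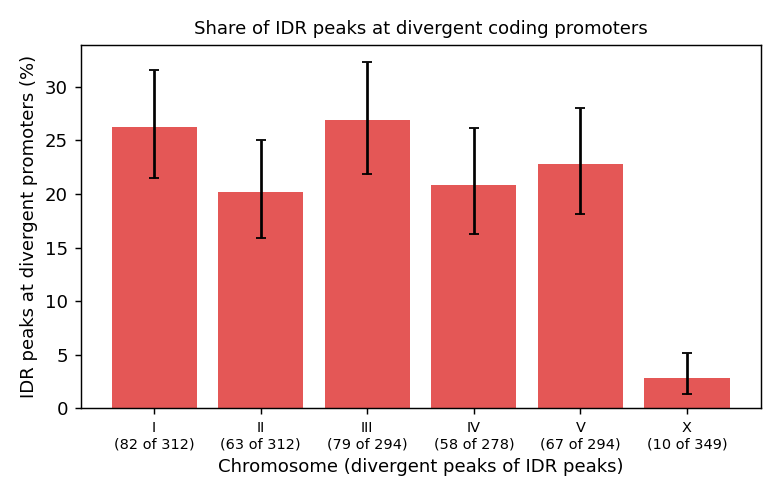
Share of the nuclear peaks of each chromosome that are members (y axis, percent), with 95% exact binomial intervals and counts under each bar. The X stands at 2.87% and the autosomes between 20.2% and 26.9%.

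Most members had a peak in both replicates. The thresholded list was derived from the relaxed replicate lists, which hold 21391 and 29975 nuclear peaks. Overlap with them therefore follows in part from the selection. An overlapping peak of at least 1 bp was found in replicate 1 for 336 members (93.6%), in replicate 2 for 357 (99.4%) and in both for 334 (93.0%), beside 94.5% of all nuclear peaks and 93.9% of single-sided ones. The strongest members without a replicate 1 peak were *cox-6B* with *Y71H2AM.20* (68.1 pooled, 62.3 in replicate 2), *piit-1* with *sas-5* (51.5 and 51.6) and *cogc-2* with *klp-18* (50.2 and 34.4). The 2 without a replicate 2 peak were the stronger *ecps-1* and *atx-2* summit (44.0 pooled, 7.24 in replicate 1) and *ccdc-12* with *Y69A2AR.18* (32.7 and 12.01). A stricter measure counted members overlapped by one of the 1839 strongest nuclear peaks of each replicate. It gave 216 of 359 (60.2%) for both replicates, beside 62.2% of all nuclear peaks. In replicate 1 it gave 234 members (65.2%), beside 70.3% of all nuclear peaks and 69.6% of single-sided ones. In replicate 2 it gave 332 members (92.5%), beside 89.3% and 89.6%. By this measure the members' share was below that of the whole list in replicate 1 and above it in replicate 2, without a test. In the relaxed lists members' support was close to that of the list as a whole.

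The replicates also placed the summits close together. The distance between the replicate 1 and replicate 2 summits at the 334 members in both had a median of 19 bp (quartiles 9 and 36), beside 26 bp (11 and 48.8) at single-sided peaks and 23 bp (10 and 49) at all nuclear peaks. The median distance to the pooled summit was 13 bp in replicate 1 and 1 bp in replicate 2. Signals had a median of 10.1 in replicate 1 and 35.8 in replicate 2, on scales that cannot be set against each other. Across the 334 members the log2 signals of the replicates had Pearson r = 0.623 and Spearman rho = 0.505, and r = 0.566 without the 2 strongest. These describe peaks that share libraries. For single-sided peaks r was 0.621. All 36 peaks at listed ribosomal protein genes overlapped a peak of both relaxed replicate lists by at least 1 bp. Some of these replicate peaks were weak. At *rps-0* with *rbg-3* the replicate 1 signal was 2.29 (rank 17884), where the lowest of that list was 2.00. The unlisted *C37A2.7* with *pqn-20* had no replicate 1 peak.

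**Figure D5:**
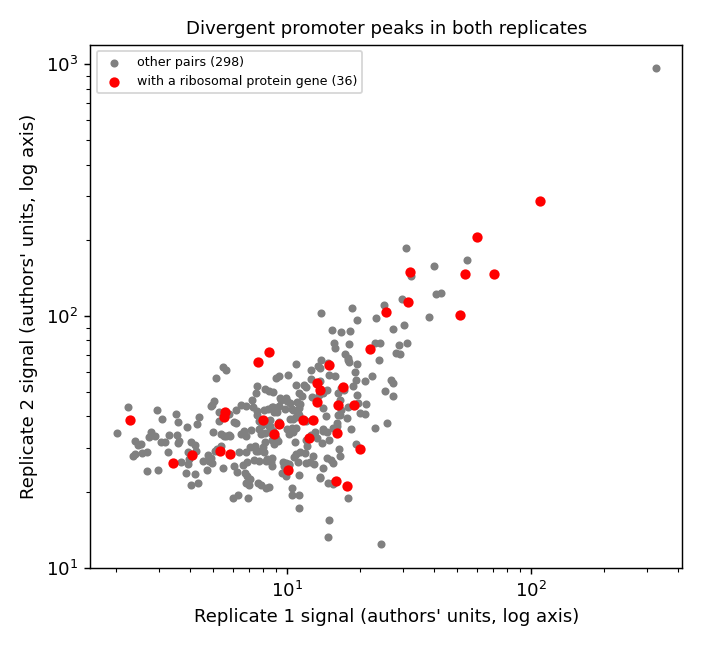
Signal of the overlapping peak in replicate 1 (x axis, log scale, authors' units) and in replicate 2 (y axis, log scale, authors' units) for the 334 members with both. The 36 peaks with a listed ribosomal protein gene (red) spread through the range of the other 298 (grey).

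The sequences at the summits were searched for 9 short motifs within 50 bp on either side, on both strands. AGACGCAG, CGGAACCC, GCCGACAC, CTGTTTCA and the run of A were already leading in an earlier analysis of these data. Their shares are therefore no independent evidence. AGACGCAG, in capitals in the second set of sequences above, was near 28 members (7.80%, 95% interval 5.25 to 11.1), 13.6% of single-sided peaks, 10.5% of all nuclear peaks, 3.92% of divergent candidates below the threshold and 2.08% of all nuclear candidates. Its 31 sites lay at a median of 15.5 bp from the summit, and 16 were on the plus strand. Members with it had a median signal of 44.1 and those without it 45.4. The *drr-2* and *set-16* window holds AGACGCAG at 2 places.

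A pair of sequences frequent in the whole list was rare at members or not found there. CGGAACCC was near 0 of 359 members, which allows a share of up to 0.836% by a floor of 3 counts and up to 1.02% by the exact interval, beside 6.47% of all nuclear peaks and 2.24% of single-sided peaks. GCCGACAC was near 2 members (0.557%), beside 6.31% and 2.68%. The piRNA upstream motif CTGTTTCA was near 2 members (0.557%). No single-sided peak had it, and these 2 were all of the nuclear peaks with it (0.109%). It was near 1.21% of all nuclear candidates. The TATA box letters TATAAA were near 3.62% of members, 4.02% of single-sided peaks and 4.35% of all nuclear peaks. Among the weaker divergent candidates the share was 11.9%. CTCCGCCC was near 3.62% of members, 1.79% of single-sided peaks and 1.57% of the weaker divergent candidates. CCAAT, in 17.0% of members and 17.1% of single-sided peaks, and CACGTG, in 2.79% and 4.02%, differed little between these sets. A run of AAAAAAAA was near 4.46% of members, 2.38% of single-sided peaks, 3.21% of all nuclear peaks and 11.0% of the weaker divergent candidates.

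The 4 other capitalised sequences were found by ranking all 8-base sequences by their share in members minus their share in weaker divergent candidates, keeping those that share no 5 bases in a row with a higher one. Lengths of 6 and 7 bases were also looked at. They were therefore chosen on these members and carry no test. GCGAGACC was near 43 members (11.98%, 95% interval 8.81 to 15.8), 1.96% of weaker divergent candidates, 4.32% of single-sided peaks and 0.557% of all nuclear candidates. Of its 43 sites 30 lay within 20 bp of the summit. GCGCTCCA was near 32 members (8.91%) and 3.01% of the weaker candidates, ACTCCTCT near 24 (6.69%) and 0.523%, and CTGGCGCA near 23 (6.41%) and 0.523%. In the same order, their shares were 4.32%, 2.68% and 3.43% of single-sided peaks and 3.59%, 2.56% and 2.72% of all nuclear peaks. At least 1 of the 4 was near 117 members (32.6%), 2 or more near 5, and 3 of the members with GCGAGACC also had AGACGCAG. These joint counts were made for members only. In the windows above, *fib-1*, the fibrillarin gene, with *mut-15* holds both GCGAGACC and GCGCTCCA, the latter on the other strand. Base composition differs between these sets, as given above, and its part in these shares was not tested.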

How the data were processed

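Peak lists on ce11 were used as deposited by the authors: relaxed candidate lists of each replicate and of the pooled reads, called against a control alignment, and the list thresholded by irreproducible discovery rate (IDR) derived from them, per the deposited description files. For the aligner and caller, the name is not given in the sources used here. Each peak's deposited signal, its strength from the authors' peak caller, was compared only within a list, since no depth scaling is stated. The 25 mitochondrial peaks of the 1864 in the list were left out. Peak ends lay within the chromosomes of the WBcel235 assembly, whose coordinates ce11 shares.

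Coding 5′ ends came from Ensembl release 115 protein-coding transcripts, and product names and sequence from RefSeq. The nearest outward end on each side within 1000 bp named the pair. The summit was the peak start plus its offset, and the rule was tested on simulated data and against a plain search. Replicate overlap was at least 1 bp, keeping the strongest overlapping peak. Gene lists were 21 patterns of gene names. Members, lists and some of the motifs were chosen with earlier results of these data known. Named pairs were the 12 strongest and 3 weakest members, the 3 strongest of each list, pairs with both genes listed, and the extremes of spacing, distance and replicate support. Not every pair the rule names was printed, and 1 is not reported here. Genes named in contrasts or as list members beyond these, the DREAM list and 4 of the 8-base sequences were chosen after their values were seen. Intervals came from scipy 1.17.1, tables from pandas 2.3.3 with numpy 2.4.6, and plots from matplotlib 3.10.9, under Python 3.11.15.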

Additional observations from a re-analysis of the deposited data

How the results depend on the processing

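With 1 group and 2 replicates, each alternative changed 1 choice. Of 59 values recomputed, 34 stayed within 1.5 times for counts, within the 95% interval for shares, or within the SD of the values from each replicate alone, and 25 did not. The 359 members became 110 with a 250 bp window and 194 in the 919 strongest peaks (the stronger part of the list). From each replicate's own strongest peaks there were 280 (replicate 1) and 368 (replicate 2), of whose gene pairs 230 of 279 and 329 of 365 were among the 356 pooled pairs. The ratio of member to list median signal, 1.04, was 1.08 at 250 bp and 0.998 in the stronger part, where it falls below 1, and ran from 1.05 to 1.11 with a replicate left out. The share of divergent candidates past the threshold, 31.9%, was 40.7% at 500 bp, 42.0% at 250 bp and 17.3% for the stronger part. Support in both replicates, 93.0%, was 97.4% in the stronger part, 88.9% with replicate summits within 100 bp, and 88.6% to 95.7% for a replicate's own members in the other replicate. Median spacing, 520 bp, was 403 at 500 bp, 277.5 at 250 bp, 531 without the noncoding exclusion, 499 excluding any noncoding gene, 527.5 in the stronger part and 516 to 521 with a replicate left out. Median summit position, 50.2%, was 49.2% at 250 bp, 50.5% with outermost ends, 50.4% without the noncoding exclusion, 49.2% excluding any noncoding gene, 49.7% for midpoints and 49.7% to 49.9% with a replicate left out. The 38 ribosomal protein genes were 31 at 500 bp and 33 to 36 with a replicate left out. No paired analysis was possible because there is only 1 group. Depth was unknown.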
